A study of Caenorhabditis elegans with 3 samples.

Results

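The comparison of worms exposed to rGO with control worms covers 9097 of the 17118 genes measured in the series. The value of each gene on the rGO array was set against its value on the control array, and a gene entered when the brighter of its 2 values reached 6.79, the median over all gene values, which is called the floor here. Of the genes that entered, 7926 reached the floor on both arrays, 545 on the rGO array alone and 626 on the control array alone. Genes that entered through 1 array alone had to differ between the arrays, so counts over them describe the comparison and support nothing further. Just inside the floor, Y46G5A.15 had 6.68 with rGO and 6.79 in control and W08E3.4 had 5.96 with rGO and 6.79 in control, and just outside it were zipt-15 at 6.79 and C16C8.9 at 6.79 on their brighter arrays.

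The worms were whole wild-type Caenorhabditis elegans hermaphrodites taken as 3-day young adults from synchronised cultures raised on bacterial lawns. Worms labelled rGO and worms labelled GO were kept unfed at 20 °C for 24 h in K-medium, a solution of 0.032 M KCl and 0.051 M NaCl to which the material had been added, and control worms belong to the same protocol without it, although the title of the control sample does not state the 24 h. All groups shared this starved, food-free incubation, so the comparison is not with fed worms. The labels give the abbreviations GO and rGO only, which in the published study stand for graphene oxide and reduced graphene oxide, a graphene oxide stripped of part of its oxygen groups, and their concentration is not stated in the labels. Each group has 1 Affymetrix array made from 300 ng of total RNA. There are no replicates, so no test, standard error or p-value is given, and "higher" or "lower" describes these arrays alone. All values are the authors' log2 expression values, differences are rGO minus control, and a difference of at least 1 (2-fold) is counted. A fold is written "at least" where the dimmer array lay below 6.24, the brightest of 8 probe sets without a target in worm RNA, and it is then taken against that limit.

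Genes of C. elegans carry a class name of a few letters and a number once they have been placed in a family or found in a screen, so that flp genes encode FMRFamide-like neuropeptides and col genes cuticle collagens. Genes without a class name carry only the name of the clone in which they were sequenced and are called uncharacterised here. Many worm families, among them the F-box, C-type lectin, nuclear receptor and detoxification enzyme genes, have grown by gene duplication and sit in clusters of related neighbours. In a whole worm, fewer cells of a type and less RNA per cell cannot be told apart.

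The arrays had nearly equal medians over the worm probe sets, 6.86 (rGO), 6.92 (GO) and 6.87 (control), as the normalisation enforces. The added control transcripts were not equal: 24 of 24 bacterial poly-A probe sets and 18 of 18 hybridisation probe sets were lower on the rGO array than on the control array, by medians of -0.98 and -0.93. Markers of adult hermaphrodites were bright on both arrays. The yolk protein gene vit-2 had 13.24 with rGO and 12.94 in control, and the oocyte yolk receptor gene rme-2 had 11.92 with rGO and 11.28 in control. The 3 body wall muscle markers differed by 0.13 to 0.22, the 3 intestinal markers by -0.44 to 0.13 and the 3 oocyte markers by 0.64 to 0.97. Male markers mab-3, lov-1 and pkd-2 were below 6.24 on both arrays, and the embryonic gene pes-10 was too, whereas the embryonic gene end-3 had 7.19 with rGO and 7.23 in control.

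Most genes differed little between the rGO and control arrays. The median difference was 0.03, the middle 90% of genes lay between -1.64 and 1.23, and 672 genes (7.39%) had exactly the same value on both arrays, a tie that the summary of probes over 3 arrays often produces. Of the 9097 genes, 727 (7.99%) were 2-fold or more higher and 899 (9.88%) 2-fold or more lower on the rGO array. At 4-fold the counts were 122 (1.34%) and 299 (3.29%). Over all genes that entered, large differences were more often negative. Among the 7926 genes above the floor on both arrays the 2-fold counts were nearly equal, 512 higher (6.46%) and 527 lower (6.65%). Genes that entered through the rGO array alone gave 215 higher, and genes that entered through the control array alone gave 372 lower. Among the 1626 genes counted, 374 lay below 6.24 on the dimmer array, 209 were read by more than 1 probe set, and in 57 of those the probe sets differed by more than 1. Uncharacterised genes spanned -4.66 to 4.36 and genes with a class name -5.35 to 6.06, as the plot of the rGO against the control array shows.

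**Figure D1:**
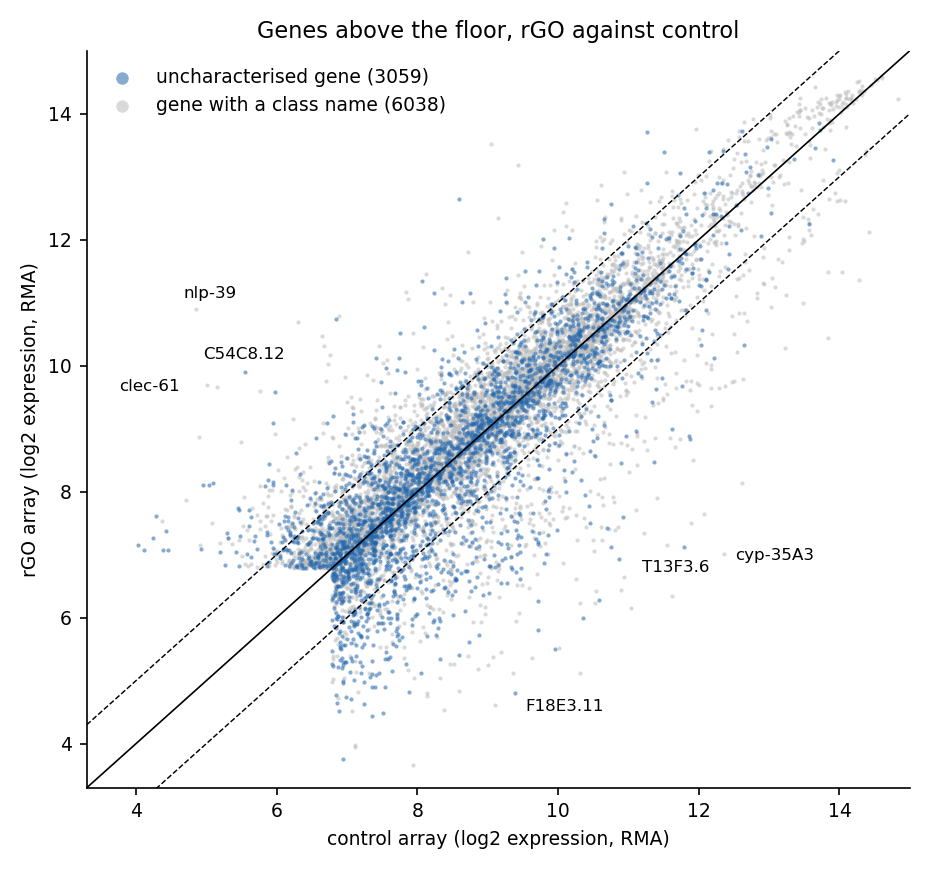
Log2 expression on the rGO array (vertical) against the control array (horizontal), 1 point for each of 9097 genes above the floor, with uncharacterised genes in blue and genes with a class name in grey. The solid line marks equal values and the dashed lines a 2-fold difference; 727 genes lie above the upper and 899 below the lower dashed line, and the square notch at 6.79 comes from the floor.

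Gene families differed from one another in where their members lay. There were 83 classes with at least 10 genes above the floor, which together hold 1788 genes. Their medians were at or above 0.3 in 13, at or below -0.3 in 8 and between these values in 62. The 3 highest medians belonged to 2 neuropeptide classes, flp (1.21) and nlp (0.81), and to srlf (0.62). The 3 lowest were those of the major sperm proteins (-1.52), the UDP-glucuronosyltransferases (-1.07) and the collagens (-1.06). Class medians depend on the floor and on the probe sets kept: below, a median over all measured members uses no floor, a stricter floor is the 75th percentile of gene values (8.92), and some medians are given without probe sets that share probes. With no floor the srlf median was 0.00. In 25 classes some members were 2-fold or more higher and others 2-fold or more lower, in 23 only higher members were counted, in 16 only lower ones and in 19 none.

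**Figure D2:**
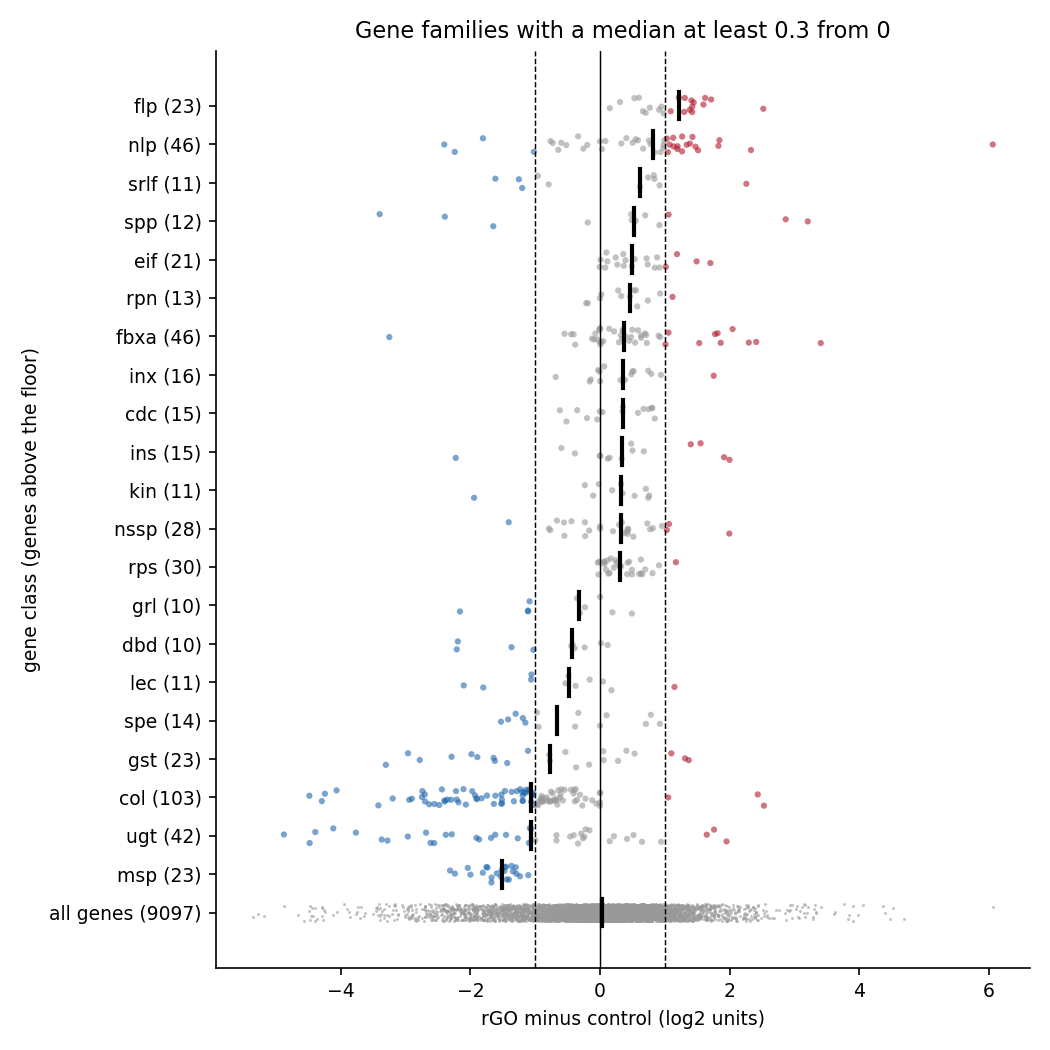
Difference between the rGO and control arrays (log2 units, horizontal) for every gene above the floor in the classes whose median lies at least 0.3 from 0, with the number of genes in parentheses and all 9097 genes in the bottom row. Points are genes, red 2-fold or more higher and blue 2-fold or more lower on the rGO array, and black bars are medians; flp lies wholly above 0 and msp wholly below -1, while nlp, fbxa, spp and col have members on both sides.

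Of 84 genes of signalling peptides above the floor, 35 were counted higher on the rGO array, 5 lower, and 44 differed by less than 2-fold. The shares were 41.7% higher and 5.95% lower, beside 7.99% and 9.88% of all genes. Neuropeptides are cut from larger precursors, amidated and released from dense-core vesicles, and in worms they set locomotion, feeding, egg laying and the use of fat. Of 25 flp genes measured, 23 were above the floor, 1 of them (flp-4) through the rGO array alone. Of these 23, 13 were 2-fold or more higher and none lower, and the differences ran from 0.15 (flp-14) to 2.52 (flp-10) with a median of 1.21. The share counted was 56.5%, beside 7.99% of all genes. flp-10 had 10.09 with rGO and 7.57 in control, a 5.73-fold difference. flp-18, whose peptides act on receptors that govern feeding and movement, had 10.99 with rGO and 9.28 in control (1.71). flp-7, a signal in the serotonin-driven loss of body fat, differed by 1.62 (3.08-fold). The egg-laying inhibitor flp-17 had 9.34 with rGO and 7.75 in control (1.60). In the plot of this class every rGO value stands to the right of its control value, and all values lie above the background limit.

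**Figure D3:**
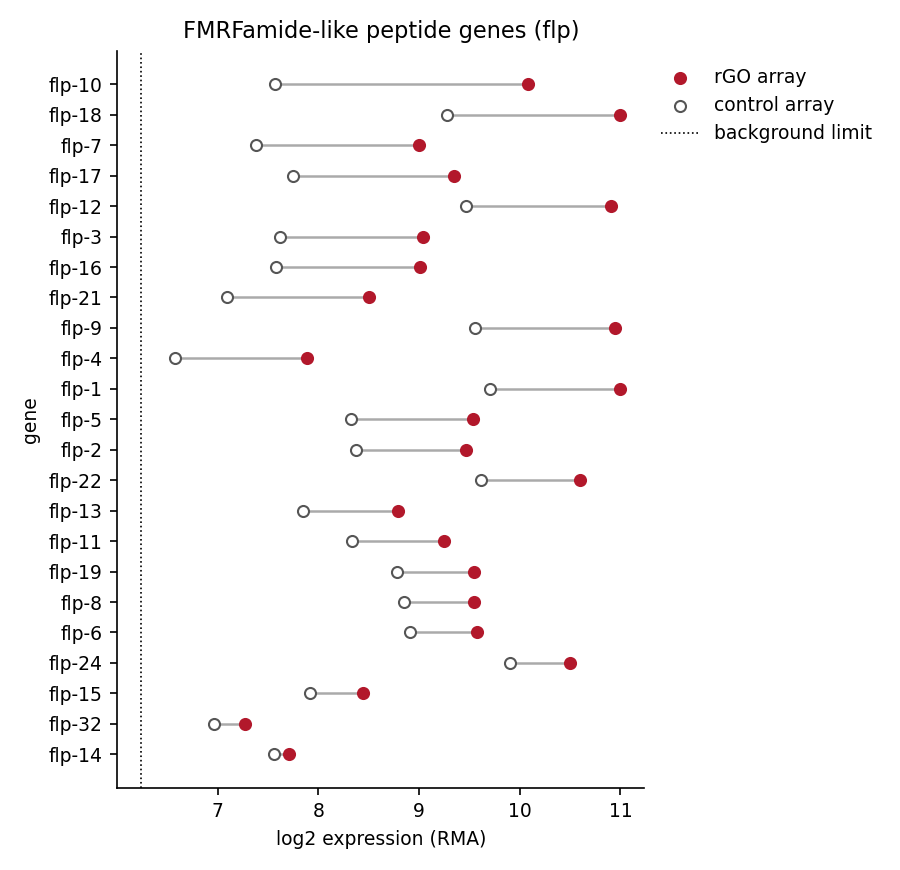
Log2 expression (horizontal) of the 23 FMRFamide-like peptide genes above the floor, with the rGO array as filled and the control array as open circles; the dotted line marks the background limit of 6.24. Genes are ordered by their difference, from 2.52 (flp-10) to 0.15 (flp-14).

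The other peptide classes were mixed. Of 58 neuropeptide-like (nlp) genes, 46 were above the floor, 7 through the rGO array alone and 2 through the control array alone. Of these, 18 were 2-fold or more higher and 4 lower (39.1% and 8.70%, beside 7.99% and 9.88% of all genes). The median was 0.81, or 0.45 when all measured members are used without a floor. nlp-39 had 10.91 with rGO and 4.85 in control, at least 25.4-fold higher and the largest positive difference of any gene (6.06). nlp-2 followed at 8.35 with rGO and 6.02 in control (at least 4.31-fold). The 4 lower members were nlp-26 (-2.40), nlp-27 (-2.24) and, named after their values were seen, nlp-33 (-1.81) and nlp-30 (-1.02), which belong to a group of epidermal peptides with antimicrobial members rather than to neuropeptides in the strict sense. nlp-26 had 7.26 with rGO and 9.66 in control, and nlp-27 had 8.88 with rGO and 11.12 in control. They are named because they were lower, and the other epidermal nlp genes were not tallied. Among 15 of 23 insulin-like genes above the floor, ins-22 (9.01 with rGO and 7.01 in control, 2.00), ins-23 (1.91), ins-35 (1.55) and ins-17 (1.40, named after its value was seen) were 2-fold or more higher. ins-37 was lower, at 5.86 with rGO and 8.08 in control (at least 3.58-fold). The shares of insulin-like genes counted were 26.7% higher and 6.67% lower.

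Enzymes that mature such peptides are given here by 2 genes of the egl class, which were among the 4 with the largest differences in that class. Other enzymes of this role were not tallied. egl-21, the carboxypeptidase that trims peptide precursors, had 11.26 with rGO and 9.51 in control (1.75, 3.36-fold). egl-3, the proprotein convertase that cuts them, had 10.27 with rGO and 9.27 in control, just under the 2-fold line, and is not counted. Of 4 neuron markers, the kinesin gene unc-104 differed by 1.03, the synaptobrevin gene snb-1 by 0.98 and rab-3 by 0.26, while unc-31 was below 6.24 on both arrays. Their median level was 8.62 on the rGO array and 7.98 on the control array, and their part in the peptide values was not tested.

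Among receptors and channels the counts were small. Of 1275 chemoreceptor genes, the largest worm family group and one expressed in few neurons each, only 10 were above the floor. Of those, srr-6 was higher (7.03 with rGO and 5.94 in control, at least 1.73-fold) and srh-237 lower (6.74 with rGO and 9.15 in control, 5.31-fold), and the others differed by less than 2-fold. Nuclear hormone receptors are ligand-bound transcription factors that expanded greatly in nematodes. Of 254 nhr genes, 92 were above the floor, with 8 2-fold or more higher, 3 lower (8.70% and 3.26%, beside 7.99% and 9.88% of all genes) and a median of 0.20, or 0.04 with all measured members and -0.0025 with the stricter floor. nhr-18 had 9.33 with rGO and 7.09 in control (2.24), and nhr-133 had 8.31 with rGO and 6.38 in control (1.93). nhr-114, a receptor needed for fertility on some bacterial diets, was lower by 6.32-fold (-2.66). nhr-137 had 6.17 with rGO and 8.96 in control (at least 6.59-fold lower), and nhr-11, named after its value was seen, differed by -1.08. The glutamate-gated chloride channel gene glc-1, whose product is a target of the drug ivermectin, stood out at 11.17 with rGO and 7.84 in control (10.1-fold higher), while glc-2 (-0.19) and glc-4 (-0.02) differed little. Of 16 innexins, which build gap junctions, only inx-6 of the pharynx was counted, at 7.94 with rGO and 6.19 in control (at least 3.26-fold). The 10 potassium channel genes above the floor, of 56 measured, differed by -0.22 to 0.79. Among 8 G protein subunit genes, gpa-9 (1.61, at least 2.79-fold) and gpa-17 (1.16, at least 2.04-fold) were higher. The neuronal sodium leak channel partner unc-80 had 8.24 with rGO and 6.94 in control (1.30) among 66 unc genes, of which 3 were higher and 1, unc-95 of muscle attachments (-1.34), was lower.

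In the 4 lists of protein synthesis genes given here, none of the counted genes was lower. Of 21 initiation factor genes above the floor, 4 were 2-fold or more higher and none lower, with a median of 0.49, or 0.29 without probe sets that share probes. eif-2A had 11.16 with rGO and 9.46 in control (1.70), eif-3.B had 10.10 with rGO and 8.61 in control (1.49) and eif-3.I differed by 1.19. eif-3.F, a further subunit of the same initiation complex, differed by 1.01, although its 2 probe sets were 1.44 apart. Of 28 aminoacyl-tRNA synthetase genes, which load amino acids onto tRNAs, 3 were higher (10.7%, near the 7.99% of all genes). None was lower, beside 9.88% of all genes, and the lowest difference was -0.11. The seryl-tRNA synthetase gene sars-1 had 12.04 with rGO and 10.59 in control (1.44), qars-1 for glutamine had 11.63 with rGO and 10.25 in control (1.38) and vars-1 for valine differed by 1.04. Among 74 cytosolic ribosomal protein genes only rps-7 was counted (13.59 with rGO and 12.42 in control, 1.17), and the median was 0.26, between 0.16 with the brightest probe set per gene and 0.44 without probe sets that share probes. Among 57 mitochondrial ones only mrps-5 was counted (11.29 with rGO and 10.06 in control, 1.23), and the median was 0.11. These medians compare with 0.03 over all genes above the floor. The ABC-F gene abcf-2, of a group of proteins that bind ribosomes, was 1.47 higher with probe sets 1.44 apart. The 3 oocyte markers, which differed by 0.64 to 0.97, were higher on the same array, and their part in the translation values was not tested.

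Genes of protein breakdown comprise the proteasome and the adaptors that select its substrates. Of 33 proteasome subunit genes, rpn-2 (1.12, probe sets 1.30 apart) and rpt-5 (10.94 with rGO and 9.89 in control, 1.04) were 2-fold or more higher. They were 6.06% of the list, near the 7.99% of all genes, and none was lower. The list median was 0.28. Ubiquitin ligases recognise substrates through F-box or BTB adaptors, which are among the most duplicated worm genes. Of 171 fbxa genes measured, 46 were above the floor, 14 of them through the rGO array alone and 3 through the control array alone. Of these, 10 were higher and 1 lower (21.7% and 2.17%, beside 7.99% and 9.88% of all genes). The median was 0.37, against 0.02 when all measured members are used and 1.06 with the stricter floor. fbxa-24 had 10.16 with rGO and 6.76 in control (10.6-fold), fbxa-6 had 8.56 with rGO and 6.15 in control (at least 4.98-fold) and fbxa-67 had 9.48 with rGO and 7.18 in control (4.90-fold). In the opposite direction, fbxa-72 had 5.27 with rGO and 8.52 in control (at least 4.85-fold lower). The related fbxc class had 10 genes above the floor and none counted. Of 103 MATH and BTB domain genes measured, 30 were above the floor, 6 of them through the rGO array alone and 3 through the control array alone. Of these 30, 7 were higher, including btb-17 (8.69 with rGO and 6.32 in control, 2.37) and bath-41 (1.69), and 1 lower. The shares were 23.3% and 3.33%, beside 7.99% and 9.88% of all genes. The list median was 0.43, or 0.00 over all measured members, 0.16 without probe sets that share probes and 1.13 with the stricter floor. The Skp1-related gene skr-5, which encodes a bridge between cullins and F-box proteins, had 8.88 with rGO and 4.90 in control (at least 6.21-fold higher), and skr-19 differed by 1.11. The other 16 of 18 skr genes above the floor differed by less than 2-fold.

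Chromatin and stress genes showed single large members. The linker histone genes hil-1 (10.52 with rGO and 7.94 in control, 2.58) and hil-7 (12.16 with rGO and 9.95 in control, 2.21) and the variant histone gene his-71 (1.45) were the counted members of 32 histone genes. Their share, 9.38%, was near the 7.99% of all genes. hsp-12.6, a small heat shock protein gene under the insulin pathway factor DAF-16, had 10.31 with rGO and 6.68 in control (12.4-fold higher). The stress-inducible hsp-70 was lower (7.74 with rGO and 9.19 in control, -1.44), as was hsp-17 (-1.73). The metallothionein gene mtl-1, which encodes a metal-binding protein, had 11.05 with rGO and 7.86 in control (9.11-fold higher), while its relative mtl-2 had 11.26 with rGO and 11.85 in control (-0.59). atg-16.2, a gene of autophagosome formation, had 9.88 with rGO and 7.58 in control (2.30) and was the counted member of 12 atg genes.

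Most of the counted enzymes that modify foreign compounds were lower on the rGO array. UDP-glucuronosyltransferases attach sugars, glutathione S-transferases attach glutathione and cytochrome P450s oxidise. Of 64 ugt genes, 42 were above the floor, 14 through the control array alone and 3 through the rGO array alone. Of these, 22 were 2-fold or more lower (52.4%, beside 9.88% of all genes) and 3 higher. The median was -1.07, or -0.58 with all measured members and -2.12 with the stricter floor. ugt-13 had 6.15 with rGO and 11.03 in control (at least 27.7-fold), and ugt-63 had 4.62 with rGO and 9.10 in control (at least 7.26-fold). ugt-22 and ugt-8 had 7.16 with rGO and 11.56 in control (-4.39) and 6.43 with rGO and 10.54 in control (-4.12). The higher members, named after their values were seen, were ugt-54 (1.95), ugt-18 (1.76) and ugt-4 (1.65). Of 23 gst genes, 10 were lower and 3 higher (43.5% lower, beside 9.88% of all genes). The class median was -0.78, or -0.17 with all measured members and -1.64 with the stricter floor. gst-26 had 7.41 with rGO and 10.72 in control (-3.31), and gst-10 had 7.58 with rGO and 10.37 in control (-2.78). gst-4, a common reporter of the oxidative stress factor SKN-1, had 6.53 with rGO and 9.49 in control (7.80-fold lower). The higher ones were gst-22 (1.37), gst-20 (1.31) and gst-41 (1.10), named after their values were seen.

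The P450 family was divided. Of 33 cyp genes above the floor, 10 were lower and 5 higher (30.3% and 15.2%, beside 9.88% and 7.99% of all genes). The class median was -0.22, or 0.00 with all measured members and -0.44 without probe sets that share probes. The largest negative difference of all genes was that of cyp-35A3, at 7.01 with rGO and 12.36 in control (40.9-fold). cyp-35C1 had 6.35 with rGO and 11.62 in control (38.8-fold), and both of its probe sets were lower, by -4.82 and -5.73. cyp-35A4 had 5.13 with rGO and 10.31 in control (at least 16.8-fold). Genes of this subfamily are known for strong induction by foreign chemicals in worms. On the higher side, cyp-37B1 had 10.47 with rGO and 6.65 in control (14.1-fold), followed, named after their values were seen, by cyp-32B1 (2.93), cyp-33E1 (1.43), cyp-13B1 (1.14) and cyp-34A9 (1.08). Short-chain dehydrogenase genes had 4 lower of 24 (16.7%, beside 9.88% of all genes) and none higher, led by dhs-23 (5.46 with rGO and 9.19 in control, at least 7.74-fold) and dhs-25 (7.23 with rGO and 10.27 in control, 8.18-fold). Aldehyde dehydrogenases had alh-10 (-1.47), alh-9 (-1.31) and alh-5 (-1.04) lower of 12. Carboxylesterase-related cest genes went both ways, with cest-33 lower (8.22 with rGO and 10.66 in control, -2.44) and cest-1.2 higher (9.50 with rGO and 7.06 in control, 2.44). The drug efflux pump gene pgp-1 was lower too (5.18 with rGO and 8.86 in control, at least 6.15-fold).

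Most of the counted cuticle genes were lower on the rGO array. The cuticle is made mostly of collagens that the epidermis secretes at each moult and in the young adult. Of 128 col genes, 103 were above the floor, 20 through the control array alone and 2 through the rGO array alone, and 42 were read only by probes shared between transcripts. Of these, 57 were 2-fold or more lower and 3 higher (55.3% and 2.91%, beside 9.88% and 7.99% of all genes), with a median of -1.06. col-49 had 5.52 with rGO and 10.01 in control (at least 13.6-fold), col-38 had 6.23 with rGO and 10.52 in control (at least 19.4-fold) and col-120 had 5.12 with rGO and 9.36 in control (at least 8.71-fold). The 3 higher members, named after their values were seen, were col-165 (10.04 with rGO and 7.51 in control, 2.53), col-74 (2.43) and col-116 (1.05). Collagens known by the shape of their mutants went both ways. rol-1 had 6.62 with rGO and 10.26 in control (12.4-fold), sqt-1 had 5.17 with rGO and 7.87 in control (at least 3.09-fold) and dpy-5 had 7.92 with rGO and 10.78 in control (7.25-fold). Unlike these, dpy-14 (9.86 with rGO and 7.29 in control, 2.57) and dpy-17 (10.76 with rGO and 8.95 in control, 1.82) were higher. The cuticlin gene cut-3 also was higher, at 8.79 with rGO and 5.50 in control (at least 5.85-fold), and the other 9 cuticlin genes above the floor differed by less than 2-fold. The adult epidermal marker col-19 had 11.26 with rGO and 12.17 in control (-0.91), bli-1 had 5.31 with rGO and 7.12 in control (-1.80, with probe sets more than 1 apart), and col-7 was not measured. The larval cuticle marker col-17 had 12.48 with rGO and 13.63 in control and cut-1 was equal at 6.89 on both arrays. The 2 adult epidermal markers measured had a median of 8.29 on the rGO array and 9.64 on the control array, and their part in the collagen values was not tested.

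Hedgehog-related genes encode secreted epidermal proteins with a domain shared with the signalling proteins of other animals. Of 54 measured, 18 were above the floor. None of these 18 was higher and 8 were lower (44.4%, beside 9.88% of all genes). The list median was -0.33, or 0.00 over all measured members and -2.16 with the stricter floor. The 4 grd genes above the floor, of 12 measured, all were lower: grd-5 had 7.35 with rGO and 11.22 in control (14.6-fold), grd-3 had 8.71 with rGO and 11.67 in control (7.77-fold), grd-14 had 7.19 with rGO and 9.81 in control (6.13-fold) and grd-10 differed by -1.50. The grd median was -2.79 with the floor and -0.05 over all measured members. Of 10 grl genes, grl-4 (7.48 with rGO and 9.64 in control, -2.16), grl-27 (-1.11), grl-16 (-1.11) and grl-21 (-1.09) were lower. The 4 wrt genes above the floor, wrt-1, wrt-2, wrt-5 and wrt-10, differed by 0.00 to 0.33. None of the 4 was counted.

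The 23 major sperm protein genes, whose products drive the crawling of nematode sperm, all were lower. They differed by -2.32 to -1.11, but 22 of them were read only by shared probes and do not give separate values. msp-64 had 10.23 with rGO and 12.54 in control, and msp-63 had 9.73 with rGO and 11.97 in control. Among 14 spe genes, needed for sperm formation or function, 5 were lower (35.7%, beside 9.88% of all genes) and none was higher. Of the 14, 7 reached the floor on the control array alone. The sperm markers msp-19 and gsp-3 had 12.27 with rGO and 13.57 in control and 7.67 with rGO and 9.60 in control, and spe-9 was below 6.24 on both arrays. Their part in the sperm gene values was not tested.

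Immune gene families held members with large differences in both directions. Of 220 C-type lectin genes, carbohydrate-binding proteins many of which answer to pathogens, 62 were above the floor. Of these, 12 entered through the rGO array alone and 10 through the control array alone, and such genes had to differ. The 62 genes had 16 higher and 13 lower (25.8% and 21.0%, beside 7.99% and 9.88% of all genes). Their median was 0.07, or 0.00 over all measured members. clec-61 had 9.69 with rGO and 5.01 in control (at least 10.9-fold higher), clec-264 had 9.75 with rGO and 6.70 in control (8.26-fold) and clec-7 had 9.83 with rGO and 6.98 in control (7.22-fold). clec-265 had 7.01 with rGO and 9.86 in control and was 7.20-fold lower. Among galectins, lec-6 (10.92 with rGO and 13.03 in control, -2.10), lec-10 (-1.80), lec-9 (-1.07) and lec-11 (-1.06, named after its value was seen) were lower and lec-2 was higher (1.15). Of the 11 lec genes above the floor these were 36.4% and 9.09%, beside 9.88% and 7.99% of all genes. Saposin-like spp genes include some that encode pore-forming antibacterial peptides. Of 12 above the floor, 3 were 2-fold or more higher and 3 lower (25% each, beside 7.99% and 9.88% of all genes). Their median was 0.52, with 8 of the 12 above 0 and 4 below. spp-8 had 12.35 with rGO and 9.14 in control (9.22-fold higher, with both probe sets above 2.9) and spp-31 had 10.31 with rGO and 7.45 in control (7.28-fold higher). spp-4 had 7.23 with rGO and 10.63 in control (10.6-fold lower), spp-23 differed by -2.40, and spp-27 (1.06) and spp-24 (-1.65) were named after their values were seen. Of 6 infection response genes above the floor, 4 were lower (66.7%, beside 9.88% of all genes). irg-4 had 7.65 with rGO and 12.08 in control (21.6-fold), irg-8 had 7.50 with rGO and 11.89 in control (21.0-fold) and irg-5 had 7.44 with rGO and 10.86 in control (10.7-fold). irg-7, the fourth, differed by -1.10, irg-3 by -0.28 and irg-2 by -0.16. Lysozyme genes lys-1 (10.08 with rGO and 11.79 in control), lys-2 (8.76 with rGO and 10.78 in control), lys-4 (11.11 with rGO and 12.53 in control) and ilys-5 (11.49 with rGO and 13.84 in control) were 2-fold or more lower, and ilys-3 was higher (8.08 with rGO and 6.73 in control). Of the 8 lysozyme genes above the floor, 50% were lower and 12.5% higher, beside 9.88% and 7.99% of all genes. The median of the 8 lysozyme genes was -0.88, -0.07 with all measured members, -1.42 with the stricter floor and 0.41 without probe sets that share probes, so its direction depends on which probe sets are used.

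Lipid genes were counted in both directions. The desaturases that make polyunsaturated fatty acids were higher: fat-3 had 13.07 with rGO and 10.94 in control (4.38-fold), fat-4 had 12.23 with rGO and 10.12 in control (4.31-fold), fat-2 had 12.80 with rGO and 11.18 in control (1.62) and fat-1 differed by 1.13. The desaturases that make monounsaturated fatty acids were not: fat-7 had 9.37 with rGO and 11.35 in control (-1.98), fat-5 had 6.39 with rGO and 8.06 in control (-1.68) and fat-6 was almost equal (0.02). The elongase genes elo-5 (9.78 with rGO and 12.63 in control, 7.19-fold) and elo-6 (9.67 with rGO and 12.38 in control, 6.52-fold), which serve branched-chain fatty acids, were lower, as was elo-2 (-1.11). They were 3 of 5 elo genes above the floor (60%, beside 9.88% of all genes). Lysosomal lipase genes lipl-2 (10.03 with rGO and 6.73 in control, 9.89-fold), lipl-3 (8.76 with rGO and 6.40 in control, 5.16-fold) and lipl-5 (1.08) were higher. They were 3 of 5 lipl genes above the floor (60%, beside 7.99% of all genes), and lipl-2 and lipl-3 entered through the rGO array alone. The fatty acid and retinol binding proteins were opposed at the ends of their range, with far-7 at 11.46 with rGO and 8.12 in control (10.1-fold higher) and far-3 at 7.45 with rGO and 10.61 in control (8.95-fold lower), while far-1 and far-2 differed by 0.07 and 0.04. Intracellular lipid-binding genes were lower in 5 of 9 cases (55.6%, beside 9.88% of all genes). They ran from lbp-8 of the lysosome (3.67 with rGO and 7.94 in control, at least 3.24-fold) to lbp-2 (-1.01). Among acyl-CoA dehydrogenases, acdh-2 had 5.95 with rGO and 9.40 in control (at least 8.94-fold lower) and the diet-responsive acdh-1 had 12.04 with rGO and 13.29 in control (-1.25). Their 10 genes had a median of -0.14, or -0.52 with all measured members, -1.16 with the stricter floor and -1.54 without probe sets that share probes. The heme-responsive hrg genes were chosen for description after their values were seen. hrg-7 had 7.90 with rGO and 11.40 in control (11.4-fold lower), and hrg-4, a heme importer of the intestine, had 4.76 with rGO and 8.13 in control (at least 3.71-fold lower). In all, 5 of 9 hrg genes were 2-fold or more lower (55.6%, beside 9.88% of all genes) and none higher.

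Several families of small secreted or nematode-specific proteins had large members. The nematode-specific peptide classes nspa to nspe had 11 lower (84.6%, beside 9.88% of all genes) and no higher genes among 13. Of the 13, 10 were read only by shared probes and 4 passed through the control array alone. nspb-10 had 7.07 with rGO and 10.51 in control (10.9-fold), and nspe-7 had 4.81 with rGO and 8.14 in control (at least 3.73-fold). In the separate nspg class, described after its values were seen, nspg-7.2 had 5.36 with rGO and 9.63 in control (at least 10.5-fold lower) and nspg-6 had 9.19 with rGO and 11.24 in control (-2.04). Secreted SCP-like genes, also described after their values were seen, were led by scl-2 (13.19 with rGO and 9.43 in control, 13.5-fold higher) and scl-5 (11.80 with rGO and 8.72 in control, 8.48-fold higher), with scl-6 lower (5.82 with rGO and 7.31 in control, at least 2.10-fold). Of 25 chitinase-like chil genes, described after their values were seen, 4 were above the floor. chil-23 (7.54 with rGO and 4.38 in control, at least 2.46-fold), chil-22 (2.12) and chil-13 (1.62) were higher and entered through the rGO array alone, and chil-10 was equal on both arrays. Of 33 transthyretin-related genes, 7 were lower, for example ttr-14 (7.92 with rGO and 10.62 in control, -2.70), and 3 higher, for example ttr-29 (8.93 with rGO and 6.66 in control, 2.28). The shares were 21.2% lower and 9.09% higher, beside 9.88% and 7.99% of all genes. In the phat class of pharyngeal gland proteins, phat-5 had 10.69 with rGO and 6.30 in control (21.0-fold higher), phat-7 (1.34) and phat-6 (1.14) were higher, and phat-4 (-1.61) was lower. The 3 pharyngeal muscle and organ markers differed by 0.52 to 0.82, and their part in these values was not tested. Of 11 srlf genes, srlf-7 had 12.86 with rGO and 10.61 in control (2.26), while srlf-3 had 6.89 with rGO and 8.51 in control (-1.62) and srlf-35 had 7.72 with rGO and 8.98 in control (-1.25). srlf-1 differed by -1.20 on average, from 1 probe set that was equal on both arrays and 1 that differed by -2.40. spig-20 had 8.14 with rGO and 12.61 in control (22.2-fold lower), whereas the other 10 spig genes above the floor differed by less than 2-fold.

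The dbd class showed a different balance. Of its 10 genes above the floor, dbd-13 (7.66 with rGO and 9.87 in control, -2.21), dbd-20 (6.29 with rGO and 8.49 in control, -2.20), dbd-19 (-1.37) and dbd-3 (-1.03) were lower, and dbd-2, dbd-5, dbd-7, dbd-8, dbd-17 and dbd-18 lay between -0.44 and 0.12. The median of the class was -0.43, or -1.79 with the stricter floor. Among genes of other classes with differences as large as these, cpg-9, a chondroitin proteoglycan gene, had 6.44 with rGO and 10.90 in control (21.9-fold lower). On the higher side, mtre-1 had 9.66 with rGO and 5.15 in control (at least 10.7-fold), cup-16 had 10.79 with rGO and 6.88 in control (14.9-fold) and dach-1 had 9.60 with rGO and 5.76 in control (at least 10.3-fold).

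At the other end of the range, 19 classes with at least 10 genes above the floor, holding 313 genes, had no counted member. They include the large-subunit ribosomal proteins (rpl, 44 genes), the lineage genes (lin, 35), the mitochondrial large-subunit proteins (mrpl, 33), the SET domain genes (set, 20) and the secretory pathway genes (sec, 19). The small GTPases (rab, 15), the dauer formation genes (daf, 14), the splicing factors (prp, 12), the chromosome segregation genes (him, 10) and the cell death and engulfment genes (ced, 10) were also among them. The ced genes spanned -0.28 to 0.21, and the rpl genes -0.36 to 0.78. The mitochondrially encoded genes above the floor, 8 in number, lay between -0.14 (ATP6) and 0.13 (ND1).

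Uncharacterised genes made up 3059 of the genes above the floor (33.6%), out of 6719 measured. Of them 263 (8.60%) were 2-fold or more higher and 386 (12.6%) 2-fold or more lower on the rGO array, beside 7.99% and 9.88% of all genes. Genes with a class name had 464 higher (7.68%) and 513 lower (8.50%). The gap in lower genes between the groups depended on the signal level. When the brighter array read under 8, 14.6% of uncharacterised genes were lower, against 5.92% of genes with a class name. Between 8 and 10 the shares were 12.9% and 8.29%. At 10 and over the order was the other way round, at 8.67% and 10.6%. Among higher genes, the shares at 10 and over were 11.1% of uncharacterised genes and 8.07% of the others. Of the uncharacterised genes, 342 reached the floor through the control array alone and 207 through the rGO array alone.

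**Figure D4:**
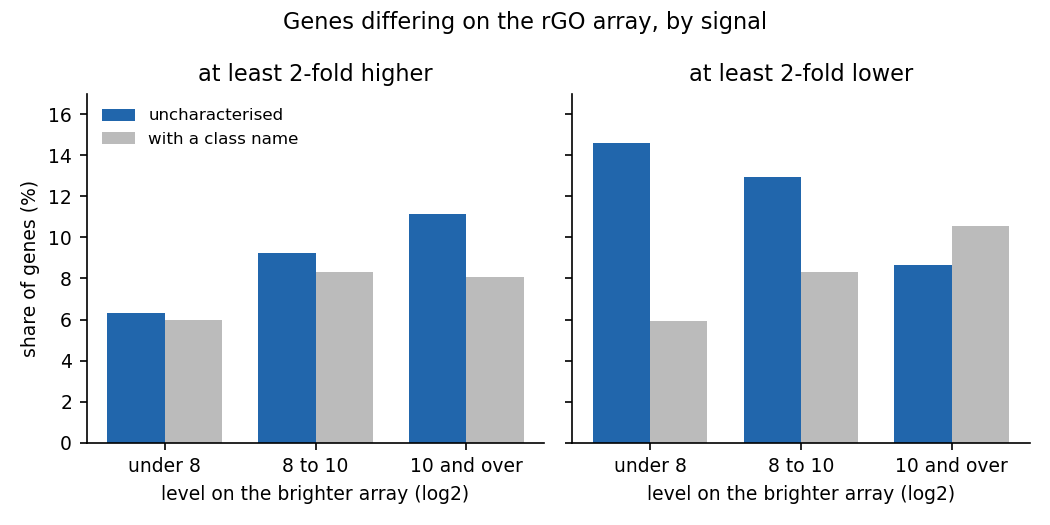
Share of genes (vertical, %) 2-fold or more higher (left panel) and 2-fold or more lower (right panel) on the rGO array, by the log2 level on the brighter array, for uncharacterised genes (blue) and genes with a class name (grey). Among lower genes the blue bars fall with level, from 14.6% under 8 to 8.67% at 10 and over, whereas the grey bars climb from 5.92% to 10.6%.

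The shares also differed between chromosomes. On chromosome V, which holds many of the worm's duplicated families, 11.1% of 597 uncharacterised genes were higher and 14.6% lower. On chromosome III the shares were 6.49% and 9.09% of 462. On chromosome I they were 8.91% and 15.4% of 494, whereas genes with a class name on chromosome I had 4.87% and 5.32%. Chromosome V was high in both directions and chromosome III low, for uncharacterised genes and for all genes (10.5% and 12.8% on V, 6.55% and 6.08% on III). The 1981 uncharacterised genes without shared probe sets gave 9.14% higher and 12.5% lower.

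The uncharacterised genes with the largest positive differences included several that were dim on the control array. C54C8.12 on chromosome I led at 9.90 with rGO and 5.54 in control (4.36, at least 12.7-fold). C32F10.4, also on chromosome I, had 12.65 with rGO and 8.60 in control (16.6-fold), and T05E12.3 on chromosome V had 10.74 with rGO and 6.84 in control (14.9-fold). For these genes no product is named in the files. Y8A9A.2 had 9.58 with rGO and 5.97 in control (at least 10.1-fold), F43C11.7 had 11.35 with rGO and 8.06 in control (9.74-fold) and ZC443.3 had 11.16 with rGO and 8.23 in control (7.59-fold). Both probe sets of ZC443.3 were higher, by 2.44 and 3.41. The others of the 15 were on the control array below 6.24, so their folds are bounds: D1086.2 had 9.10 with rGO and 5.95 in control (at least 7.25-fold), C36B1.6 had 8.10 with rGO and 4.95 in control (at least 3.63-fold) and K07G5.5 had 8.13 with rGO and 5.09 in control (at least 3.71-fold). C18H7.1, R07C12.1, F59B2.12, F47B8.4, F49H6.5 and the non-coding C30E1.9 were between 2.96 and 3.32 higher, with bounds from at least 1.79-fold (F47B8.4) to at least 3.66-fold (C18H7.1). For such dim genes the bound is well under the fold that the plain difference would give.

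**Figure D5:**
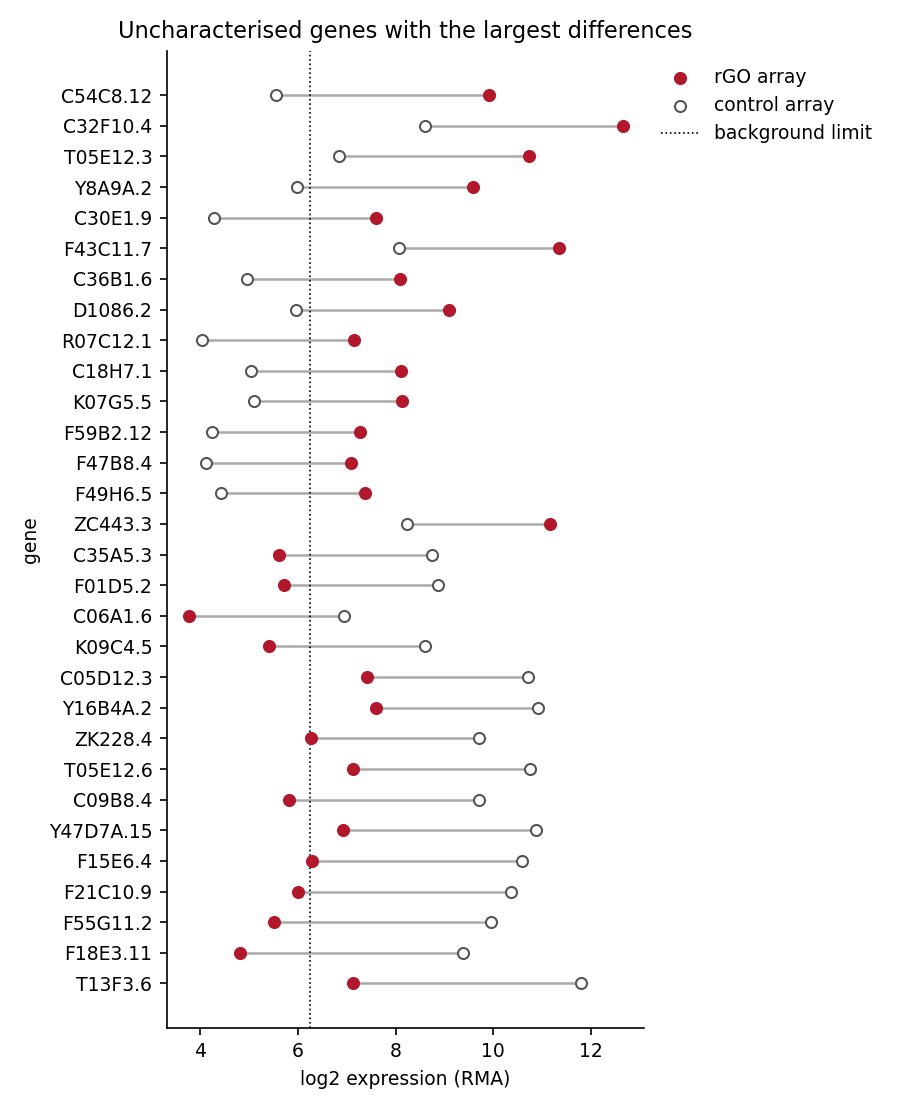
Log2 expression (horizontal) of the 15 uncharacterised genes with the largest positive and the 15 with the largest negative differences, with the rGO array as filled and the control array as open circles and the background limit of 6.24 as a dotted line. Among the upper 15 genes, 11 control values lie left of the limit, and among the lower 15 genes 8 rGO values do.

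The uncharacterised genes with the largest negative differences were brighter on the control array, as this choice requires. T13F3.6 on chromosome V had 7.13 with rGO and 11.79 in control (-4.66, 25.2-fold), and its 2 probe sets gave -4.44 and -4.88. F18E3.11 had 4.81 with rGO and 9.38 in control (at least 8.82-fold), F55G11.2 had 5.50 with rGO and 9.95 in control (at least 13.1-fold) and F21C10.9 had 5.99 with rGO and 10.36 in control (at least 17.4-fold). These stand beside the P450 and ugt genes among the 15 largest negative differences of all genes. F15E6.4 had 6.29 with rGO and 10.58 in control (19.6-fold), Y47D7A.15 had 6.92 with rGO and 10.87 in control (15.4-fold) and C09B8.4 had 5.81 with rGO and 9.72 in control (at least 11.1-fold). T05E12.6 had 7.12 with rGO and 10.75 in control (12.4-fold), and its 2 probe sets were 0.01 apart. ZK228.4 (-3.45), Y16B4A.2 (-3.33), C05D12.3 (-3.28), K09C4.5 (-3.18), C06A1.6 (-3.18), F01D5.2 (-3.15) and C35A5.3 (-3.12) completed the 15. Of these, C06A1.6 had 3.76 with rGO and 6.94 in control, so its bound was small (at least 1.63-fold).

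Few non-coding genes were measured. Of 9 genes annotated as ncRNA above the floor, 5 were 2-fold or more higher (55.6%, beside 7.99% of all genes) and none lower, beside 9.88%. C30E1.9 had 7.61 with rGO and 4.29 in control (at least 2.58-fold) and entered through the rGO array alone. tts-2 had 11.20 with rGO and 9.27 in control (1.93), and tts-1, a long non-coding RNA found on ribosomes of long-lived worms, had 13.88 with rGO and 12.65 in control (1.22). Y53F4B.45 (1.62, with probe sets more than 1 apart) and W05H9.3 (1.08), both uncharacterised and named after their values were seen, were the others. The 3 genes annotated as lncRNA, including the developmental regulator lep-5 (0.21), were not counted. The ribosomal RNA gene rrn-3.1 had 13.51 with rGO and 9.05 in control (22.1-fold higher), and its 5 probe sets differed by 4.07 to 4.79. These values are array signals from equal amounts of total RNA, on arrays whose added control transcripts also differed. Whether the content of ribosomal RNA differed between the worms was not tested. Of 93 pseudogenes, 11 were higher and 7 lower (11.8% and 7.53%), near the 7.99% and 9.88% of all genes.

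The counted genes were then set beside their neighbours on the chromosomes. There were 5123 pairs of adjacent protein-coding genes with both members above the floor. In 89 pairs both genes were 2-fold or more lower, in 42 both were higher and in 55 pairs 1 gene was higher and the other lower. Of the neighbours of a lower gene, 21.7% were lower, and of the neighbours of a higher gene 11.4% were higher. Among all protein-coding genes above the floor 9.94% were lower and 7.89% higher, but these include genes outside the pairs. Counting a gene once per pair, the pairs held 822 lower and 739 higher members. Without genes read only by shared probes, 22.6% of the neighbours of a lower gene were lower and 12.1% of those of a higher gene were higher, over 2390 pairs. Runs of at least 3 adjacent counted genes of 1 direction numbered 10, of which 9 were lower and 1 higher. Genes in these runs were named after their values were seen. Some of the lower runs hold msp genes read by shared probes (msp-63 and msp-142, msp-59 and msp-65, and msp-77), so their members do not all give separate values.

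Runs joined uncharacterised genes to named families. On chromosome II the uncharacterised Y51H7C.13 (6.56 with rGO and 9.28 in control), Y51H7C.1 (7.02 with rGO and 9.83 in control) and H17B01.2 (6.16 with rGO and 7.26 in control) lay side by side and all were lower. Between cyp-35A3 and cyp-35A4 on chromosome V lay K09D9.1 at 6.95 with rGO and 8.10 in control (-1.15). F55G11.2 adjoined mbug-1 (-1.91) and dod-17 (-1.97) on chromosome IV, and Y39D8A.1 (4.90 with rGO and 7.54 in control, -2.64) adjoined irg-8 and dod-19 (-2.16) on chromosome V. dod genes were named as targets downstream of DAF-16. lbp-8, sptl-3 (-1.67), a gene of sphingolipid synthesis, and cyp-35C1 formed another run on chromosome V. The collagen genes col-79 (-1.03), col-39 (-2.18) and col-80 (-2.56) with bli-1 were the longest run, of 4 genes. The higher run was on chromosome IV and held trxr-1, a thioredoxin reductase gene (1.25, with probe sets more than 1 apart), gldi-4 (2.08) and adah-1 (2.31).

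Some neighbours were opposed, and these too were named after their values were seen. F27C1.2 on chromosome I had 12.02 with rGO and 9.79 in control (2.23), next to dpy-5 (-2.86). glc-1 adjoined stdh-2, a steroid dehydrogenase family gene at 5.04 with rGO and 6.95 in control (-1.91). Within families, pho-4 had 9.09 with rGO and 7.33 in control (1.76) beside the intestinal acid phosphatase gene pho-1 at 5.37 with rGO and 9.07 in control (-3.70). ugt-18 had 8.48 with rGO and 6.72 in control (1.76) beside ugt-16 at 5.94 with rGO and 8.90 in control (-2.97). Uncharacterised neighbours T10B5.7 and T10B5.8 had 10.07 with rGO and 8.43 in control (1.64) and 5.35 with rGO and 7.53 in control (-2.18). In these pairs adjacent genes differed in opposite directions on the same arrays.

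The GO array gives a second exposed sample, but both comparisons share the control array, so their values are set side by side without a test. For the major sperm proteins the median against control was -1.52 with rGO and -4.57 with GO, and on 22 of 23 genes the rGO array was 2-fold or more above the GO array. For flp genes the medians were 1.21 and 0.38. For the wrt genes they were 0.29 (0.01 with all measured members) and 2.05, and wrt-1 had 7.73 with rGO, 10.47 with GO and 7.43 in control. dbd genes had medians of -0.43 with rGO and 0.73 with GO, and dbd-2 had 8.30, 11.23 and 8.74 in the same order. The epidermal marker col-19 had 11.26 with rGO, 7.97 with GO and 12.17 in control. By contrast, ugt genes (-1.07 and -1.29) and col genes (-1.06 and -0.96) had medians within 0.3 of each other. Single col genes still differed between the exposed arrays, with 15 of 103 being 2-fold or more higher and 14 lower on the rGO than on the GO array.

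A few genes, picked here after their values were seen, were bright on the rGO array alone. clec-61 had 9.69 with rGO, 5.34 with GO and 5.01 in control. Among uncharacterised genes, F49H6.5 had 7.38, 4.86 and 4.42, and F59B2.12 had 7.26, 4.88 and 4.24, in that order. For these 3 genes the GO and control values lay below 6.24. In contrast, C54C8.12 had 9.90, 9.72 and 5.54, T13F3.6 had 7.13, 6.75 and 11.79, and nlp-39 had 10.91, 10.74 and 4.85, so that both exposed arrays stood apart from the control array. For such genes the same control value enters both differences.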

How the data were processed

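Whole wild-type worms exposed to rGO, worms exposed to GO and control worms were each measured on 1 Affymetrix array. Each deposited value is a log2 level of 1 probe set, made by the authors with RMA. The submitters' processing notes also name GCOS and the Affymetrix Expression Console, without versions. RMA sets the arrays to a common distribution, so a shift shared by most genes would not be seen.

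Of 22625 probe sets, 20766 had 1 gene symbol in the platform annotation of 2016, 887 had several and 895 had none, and 77 were controls. Symbols were updated through RefSeq's table of assembly WBcel235 (20701 probe sets matched), which also gave biotypes, chromosomes and neighbours. Probe sets of a gene were averaged, which applied to 2981 genes, with a median SD of 0.331 between their probe sets. The rGO value minus the control value was computed for genes whose brighter array reached the floor of 6.79. With 1 array per group, only the spread between probe sets is known, no test was made and the number of arrays limits the precision.

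Named were the 15 genes with the largest difference in each direction, the 15 such uncharacterised genes, up to 4 genes per family or role list, every member of families with 10 or fewer genes above the floor where these were described, and marker genes. Other genes are named as chosen after their values were seen. The genes, lists and comparisons were chosen with earlier results of these data known. Alternatives were no floor, a floor at the 75th percentile, the brightest probe set, no probe sets that share probes, further quantile normalisation, centring, values raised to the background limit and a 4-fold size. The counting steps were tested on simulated data. Python 3.11.15, numpy 2.4.6, pandas 2.3.3 and matplotlib 3.10.9 were used.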

Additional observations from a re-analysis of the deposited data

Results flagged for a closer look

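Probe sets outside the comparison also differed between the rGO and control arrays, a signal in data that the comparison does not use. Of 895 probe sets with no gene in the annotation, 208 were above the floor. Of these 14 were 2-fold or more higher (6.73%) and 18 2-fold or more lower (8.65%) on the rGO array, with differences between -3.68 and 4.47. Of 887 probe sets assigned to several genes, 404 were above the floor. Of these 29 were 2-fold or more higher (7.18%) and 97 2-fold or more lower (24.0%), with differences between -4.51 and 5.44. Over single-gene values the shares were 7.99% and 9.88%.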

How the results depend on the processing

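No paired analysis was possible because each group has 1 array, and without replicates no array could be left out. Of 32 counts over all genes or uncharacterised genes, 24 stayed within 1.5 times of the reported value. With the floor at the 75th percentile (8.92), only 4811 genes entered, of which 418 were higher and 472 lower. Among the 1319 uncharacterised genes that entered, 133 were higher and 141 lower. These 2 counts were nearer each other than with the reported floor. At 4-fold, 122 genes were higher and 299 lower, and 47 uncharacterised genes were higher and 119 lower. The median of the chil genes, which encode chitinase-like proteins, was 1.87 with the floor and 0.00 over all measured members. srlf-1 differed by -1.20 as the mean of its probe sets and by 0.00 on the brighter one. Of 327 named genes with a 2-fold difference, 11 were under 2-fold with the brightest probe set, 6 after centring, 6 after quantile normalisation, 6 without probe sets that share probes and 20 with values raised to the background limit. Signals under 6.24 limit the folds of 374 counted genes to bounds.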

Other observations

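In 4 genes, chosen after their values were seen, the rGO array was 2-fold or more below and the GO array 2-fold or more above the shared control array. ZK1025.3 had 4.64 with rGO, 7.91 with GO and 6.85 in control. R02E4.1 had 6.19 with rGO, 8.69 with GO and 7.46 in control. R12E2.15 had 8.50 with rGO, 11.28 with GO and 9.71 in control, and ifp-1, an intermediate filament gene, had 7.05 with rGO, 9.20 with GO and 8.17 in control. For ZK1025.3 and R02E4.1 the rGO value lay below the background limit of 6.24, and R12E2.15 and ifp-1 were read by shared probes.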
